A study of Mus musculus with 15 samples.

Results

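Ribosome binding was followed over the circadian day on 10 mouse genes that make or use nicotinamide adenine dinucleotide (NAD): Nampt, Nmnat1, Nmnat3, Naprt, Nadsyn1, Nmrk1, Tdo2, Qprt, Nnmt and Sirt1. They were taken by gene symbol, which gave 11 of the 28167 RefSeq transcripts in the deposited tables and 10 of 20101 named genes. All 11 averaged at least 10 counts over the libraries, which 17299 transcripts in all did. Sirt1 has 2 transcripts that share nearly all of their reads, and the one with more reads stands for the gene. The livers came from wild-type male C57BL/6N mice of 8 to 10 weeks. All mice were kept for 2 weeks in a cycle of 12 h light and 12 h dark (LD) and then moved to constant darkness (DD). Whole liver was taken, from 24 h after that move, every 4 h from CT0 to CT24 (circadian time in h), which gave 7 times. Each time had 2 mice, 1 library each, and CT24 lies one full cycle after CT0.

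NAD carries electrons in metabolism and is also consumed as a substrate by sirtuins, PARPs and CD38, which release nicotinamide. Cells rebuild it from that nicotinamide in the salvage pathway, whose rate-limiting enzyme is NAMPT, from nicotinic acid in the Preiss-Handler pathway, from nicotinamide riboside, or de novo from tryptophan in the kynurenine pathway, for which the liver is the main site. The circadian activator CLOCK:BMAL1 binds E-box motifs at Nampt, and SIRT1 in turn deacetylates clock proteins, so that NAD and the clock are known to be linked in this tissue. The comparison asked which steps of NAD synthesis and use had rhythmic ribosome binding, with salvage set against the de novo and Preiss-Handler steps.

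The DNA around the start sites was read because clock factors bind short motifs there. The motifs searched, on both strands, were CACGTG (the E-box), CACGTT (the E'-box), TTATGNAA (the D-box) and AGGTCA (bound by ROR and REV-ERB factors). The RefSeq promoter table (GRCm38.p6, 250 bases before to 50 after a start site) held promoters of 8 of the 10 genes, all but Naprt and Nnmt. In these 300 bases, CACGTG was found in 7.15% of 32851 promoters, CACGTT in 4.68%, TTATGNAA in 3.38% and AGGTCA in 16.3%. In a window of 2000 bases centred on the start site, chosen after the data were seen, the shares were 27.2%, 27.7%, 23.6% and 70.2%. The sequences below are those of the salvage gene Nampt, of Nmrk1 and Tdo2, and of Sirt1, read 5′ to 3′ on the gene's strand with the motif in capitals. They were picked after the matches were seen, as all matches of these 4 genes in the 300 bases and, for Nampt and Nmrk1, 1 further match in the first intron. Positions count from 1 at the start site and are those of the first base of the motif.
Nampt, AGGTCA at -151 (chr12:32820172-32820201, plus strand): aggcaggcgcccAGGTCAcgcgctggggtg
Nampt, CACGTG at 741 in intron 1 (chr12:32821063-32821092, plus strand): ctagggatcattCACGTGcctgccccctgg
Nmrk1, TTATGNAA at 664 in intron 1 (chr19:18632668-18632697, plus strand): gaaaatactggTTATGTAAgaaactacagg
Tdo2, AGGTCA on the opposite strand at -6 (chr3:81975717-81975746, minus strand): tgataccattccTGACCTagcaaacctgtg
Sirt1, CACGTG at -115 (chr10:63339133-63339162, minus strand): gcggcgcccggcCACGTGacccggcgtgtt
Sirt1, CACGTG at -43 (chr10:63339061-63339090, minus strand): ggaggggcgggtCACGTGacggggtttaaa
Of the 8 genes, Sirt1 alone had CACGTG within the promoter table's 300 bases, and Nampt, Nmnat3 and Tdo2 had AGGTCA there. In the wider window 5 of the 8 had CACGTG, 2 had CACGTT, 3 had TTATGNAA and 7 had AGGTCA. Matches there that are not printed for these 4 genes were TTATGNAA at -934 of Nampt, AGGTCA at 781 of Nmrk1, and AGGTCA at -846 and CACGTT at 579 of Tdo2. A match describes the letters only, and binding was not measured.

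Library totals ranged from 40593197 to 90458783 counts. The 18 transcripts of major urinary protein (Mup) genes took 34.2% to 57.6% of the counts. Levels were therefore scaled with the trimmed mean of M-values (TMM), whose factors averaged 1.36 at CT0 and 0.819 at CT12, and are given as CPM, the count scaled to a common library size. TMM factors followed a cosine with a log2 peak-to-trough difference of 0.46, so a change of about this size depends on the scaling. Hepatocyte markers summed to between 34331 and 48279 CPM, against 53.9 to 100.3 for Kupffer cell and 79.2 to 122 for endothelial markers. The 4 pancreatic acinar markers summed to 1707 CPM in CT20 replicate 2 and to at most 34.0 CPM in the other libraries, and each was at 0 in at least 1 library. In CT16 replicate 2 all counts were even numbers, and whether they had been doubled is not given. With them halved, the same 4 of the 10 genes were called as below.

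Ribosome binding was rhythmic for 4 of the 10 genes, or 3 when scaled by library totals, and all 4 peaked between CT11.5 and CT16.5. They were Nampt, Nmrk1 and Nnmt, which all act on nicotinamide or its riboside, and Tdo2, the entry of the de novo pathway. Rhythm was called by an edgeR quasi-likelihood test of a 24 h cosine with an adjusted p under 0.05, and 11.2% of all 17299 transcripts passed it. All 10 genes had a mean of at least 100 counts, and 16.6% of the 12029 such transcripts passed when tested alone. The other 6 genes, among them both NMNAT enzymes, both Preiss-Handler enzymes, Qprt and Sirt1, did not pass. Phases are given with the SE of a least-squares cosine fit to log2(CPM + 0.5), and peak-to-trough differences come from the edgeR fit. All such differences are in log2 units. Their median was 0.64 over the 10 genes and 0.44 over all transcripts tested. In whole liver, fewer cells of a type and less RNA per cell cannot be told apart. The study lacked RNA sequencing of these samples, so the amount of an mRNA and the ribosomes on each copy cannot be told apart either.

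**Figure D1:**
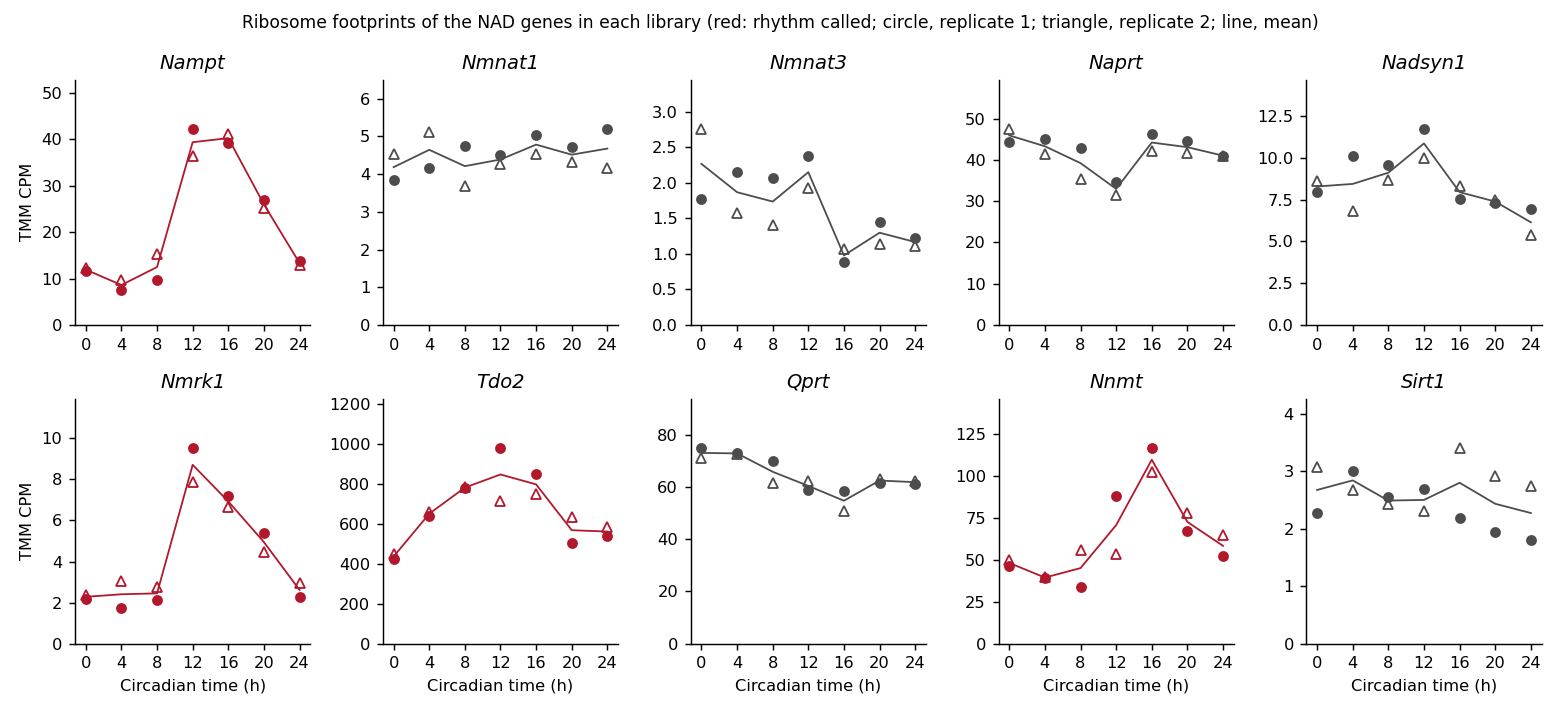
TMM-scaled CPM of the 10 genes (vertical axes, from 0) against circadian time in h, with replicate 1 as circles, replicate 2 as open triangles and the mean of both as a line. The 4 genes called rhythmic are in red (Tdo2 was not called when scaled by library totals), and Nampt and Nmrk1 stay low from CT0 to CT8 and stand high at CT12 and CT16.

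Nampt, which turns nicotinamide into nicotinamide mononucleotide (NMN), had the largest cosine of the 10 genes. In replicates 1 and 2 it measured 11.6 and 12.3 CPM at CT0, 7.46 and 9.77 at CT4, 9.79 and 15.2 at CT8, 42.3 and 36.5 at CT12, 39.3 and 41.2 at CT16, 26.9 and 25.2 at CT20, and 13.8 and 12.9 at CT24. The 4 libraries of CT12 and CT16 lay above all others, the 2 of CT20 came next, and no library of CT0, CT4, CT8 or CT24 reached those of CT20. The step from CT8 to CT12 was 3.15-fold, from 12.5 ± 3.82 to 39.4 ± 4.09 CPM (SD, n = 2 mice each), while CT16 was 1.02 times CT12. The cosine peaked at 15.5 h (SE 0.297 h) with a log2 peak-to-trough difference of 2.39, or 5.23-fold (edgeR, adjusted p = 2.58e-07). Fitted apart, the series of replicate 1 peaked at 15.8 h and that of replicate 2 at 15.2 h. Under all 35 alternatives Nampt was called, with phases from 15.1 to 16.3 h.

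Nmrk1, the kinase that makes NMN from nicotinamide riboside, had the pattern most like that of Nampt. It measured 2.18 and 2.39 CPM at CT0, 1.75 and 3.06 at CT4, 2.15 and 2.75 at CT8, 9.54 and 7.86 at CT12, 7.21 and 6.63 at CT16, 5.40 and 4.49 at CT20, and 2.27 and 2.96 at CT24. As with Nampt, the CT12 and CT16 libraries were the highest, those of CT20 came next, and all others lay below 3.1 CPM. The mean rose 3.55-fold from CT8 to CT12. The cosine peaked at 15.0 h (SE 0.517 h) with a peak-to-trough difference of 2.05 (edgeR, adjusted p = 5.26e-05). Nmrk1 was counted with 111 to 777 reads per library and Nampt with 482 to 3445.

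Nnmt methylates nicotinamide and so takes it out of salvage. It measured 46.3 and 50.02 CPM at CT0, 39.0 and 39.9 at CT4, 34.1 and 56.1 at CT8, 88.1 and 53.2 at CT12, 116.9 and 102 at CT16, 67.3 and 77.9 at CT20, and 52.1 and 64.6 at CT24. Both CT16 libraries were above all others, and the CT12 pair was the widest apart, with its lower library inside the range of CT8. The cosine peaked at 16.5 h (SE 0.570 h) with a peak-to-trough difference of 1.36 (edgeR, adjusted p = 2.59e-04).

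Tdo2, tryptophan dioxygenase, opens the kynurenine pathway and had by far the most reads of the 10 genes. It measured 426 and 447 CPM at CT0, 639 and 661 at CT4, 777 and 784 at CT8, 980.5 and 712 at CT12, 846 and 747 at CT16, 503 and 632 at CT20, and 539.8 and 582 at CT24. The libraries of CT8, CT12 and CT16 were all above those of the other times. The cosine peaked earlier in the day than that of Nampt, at 11.5 h (SE 0.727 h), with a peak-to-trough difference of 0.79 (edgeR, adjusted p = 0.00140). This call depended on the scaling. Scaled by library totals, Tdo2 measured 622 and 562 CPM at CT0 against 883 and 525 at CT12, its peak-to-trough difference was 0.43 and its adjusted p was 0.355 (edgeR). Nampt, Nmrk1 and Nnmt were called under that scaling as well, with peak-to-trough differences of 2.35, 1.96 and 1.55, so 3 of the 10 genes passed where 8.25% of all transcripts did.

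Without CT20 replicate 2, the library with the pancreatic acinar reads, the adjusted p was 1.99e-07 for Nampt, 5.84e-05 for Nmrk1, 2.98e-04 for Nnmt and 0.00140 for Tdo2 (edgeR), and the other 6 genes still did not pass.

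The 6 genes that did not pass differed in how they lay over the day. Qprt, which forms nicotinic acid mononucleotide at the end of the de novo branch, measured 73.0 ± 2.90 CPM at CT0 and 54.7 ± 5.38 at CT16 (SD, n = 2), with a fitted peak at 3.58 h, a peak-to-trough difference of 0.35 and an adjusted p of 0.123 (edgeR). The study used the rank test JTK_CYCLE. A version written anew, which keeps ties in the reference cosine and whose P can differ from those of the study's software, gave Qprt a P of 0.00919 on TMM CPM and 0.0471 on CPM of library totals, adjusted over the 6 lags tried but not over transcripts. By that rule 16.5% and 17.6% of all transcripts passed. Naprt, the first enzyme of the Preiss-Handler pathway, ranged from 33.0 CPM at CT12 to 46.0 CPM at CT0 (peak-to-trough 0.28, adjusted p = 0.303). Nadsyn1, the amidating enzyme that ends both the Preiss-Handler and the de novo branch, ranged from 6.15 CPM at CT24 to 10.9 CPM at CT12 (0.52, adjusted p = 0.0950).

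The 2 NMNAT enzymes that turn NMN into NAD gave no call either. Nmnat1, the nuclear enzyme, lay between 3.69 and 5.20 CPM in all libraries, with a peak-to-trough difference of 0.08 (edgeR, adjusted p = 0.946). Nmnat3, the mitochondrial one, was counted with only 54 to 193 reads per library, and its fitted difference of 0.76 had an adjusted p of 0.403. Sirt1, the NAD-dependent deacetylase, lay between 1.80 and 3.42 CPM, with a peak-to-trough difference of 0.05 (adjusted p = 0.990). The peak-to-trough differences of these 6 genes, other than that of Nmnat3, depended on the scaling. By library totals they were 0.64 for Qprt, 0.75 for Naprt, 0.05 for Nadsyn1, 0.51 for Nmnat1, 0.77 for Nmnat3 and 0.43 for Sirt1, and none passed (edgeR, adjusted p from 0.142 for Naprt to 0.990 for Nadsyn1). Both CACGTG sequences of the Sirt1 promoter printed above lie at a gene for which no rhythm was called.

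Salvage was then set against each other step within every library, as the ratio of a gene's counts to those of Nampt, which needs no scaling between libraries. Of the 9 other genes, 8 changed against Nampt over the day (limma cosine test, adjusted p from 2.54e-06 for Qprt to 0.00124 for Nnmt). This is close to what any gene does, since 95.2% of 17298 transcripts passed. Nmrk1 was the one that did not pass (adjusted p = 0.197). Its ratio to Nampt differed from peak to trough by 0.43 (95% interval 0.03 to 0.82), with an unadjusted p of 0.193 (limma). These intervals use the SE of a least-squares fit, around a difference that cannot be negative. A lower end above 0 therefore does not show a change over the day. Nor does an adjusted p above the threshold show that both genes act alike. The ratio of Nnmt had a difference of 1.15 (0.67 to 1.63), and those of the other 7 genes lay between 2.12 for Tdo2 and 3.01 for Nmnat3.

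Per kilobase of coding sequence, Nampt changed places with Naprt in the course of the day. The density of Nampt was 0.286 and 0.283 times that of Naprt at CT0, 0.178 and 0.263 at CT4, 0.249 and 0.472 at CT8, 1.39 and 1.28 at CT12, 0.942 and 1.09 at CT16, 0.650 and 0.673 at CT20, and 0.371 and 0.342 at CT24. It exceeded Naprt in 3 of 14 libraries, both of CT12 and 1 of CT16. Against Qprt the ratio ran from 0.0665 in CT4 replicate 1 to 0.508 in CT16 replicate 2, and against Tdo2 from 0.0102 to 0.0487. Nampt thus stayed below both de novo genes in all 14 libraries. Against Nmrk1 it stayed above, at 1.65 to 2.92 times, in all 14.

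**Figure D2:**
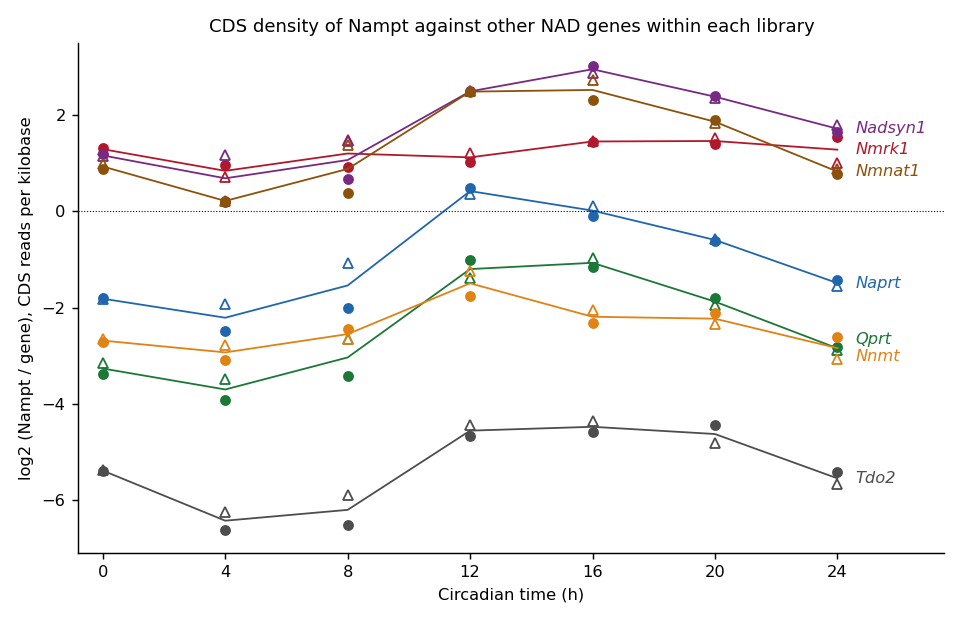
Log2 ratio of the CDS density of Nampt to that of 7 other NAD genes (vertical axis) against circadian time in h, per library (circles, replicate 1; open triangles, replicate 2) with the mean as a line. The line for Naprt crosses 0 at CT12, where the ratio was 1.39 and 1.28, while that for Nmrk1 stays between 1.65-fold and 2.92-fold.

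Levels of the 10 genes were compared as CDS RPKM, the CPM of coding reads per kilobase of coding sequence. Tdo2 was highest at 494 ± 117 (SD, n = 14 libraries), followed by Nnmt at 69.5 ± 28.6, Qprt at 65.3 ± 6.99, Naprt at 24.9 ± 2.85, Nampt at 14.4 ± 8.81, Nmrk1 at 5.98 ± 3.60, Nmnat1 at 4.65 ± 0.539, Nadsyn1 at 3.58 ± 0.679, Nmnat3 at 1.66 ± 0.481 and Sirt1 at 1.16 ± 0.201. These SDs include the change over the day. Tdo2 exceeded Nnmt 7.45-fold, Qprt exceeded Naprt 2.63-fold, Nampt exceeded Nmrk1 2.35-fold and Nadsyn1 exceeded Nmnat3 2.21-fold, each in 14 of 14 libraries. Nnmt and Qprt could not be ordered, since Nnmt was higher in 6 of 14 libraries and the mean log2 ratio was -0.01 ± 0.69. Nmrk1 and Nmnat1 could not be ordered either (Nmrk1 higher in 6 of 14, 0.15 ± 0.79). Naprt was above Nampt in 11, Nmnat1 above Nadsyn1 in 12 and Nmnat3 above Sirt1 in 10 of 14 libraries. The coefficient of variation was 61.1% for Nampt and 60.2% for Nmrk1, against 10.7% for Qprt, 11.5% for Naprt and 11.6% for Nmnat1. These low values hold under TMM scaling, since by library totals the SDs of Qprt, Naprt and Nmnat1 were 19.1, 7.57 and 1.09 around means of 67.2, 25.7 and 4.73.

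**Figure D3:**
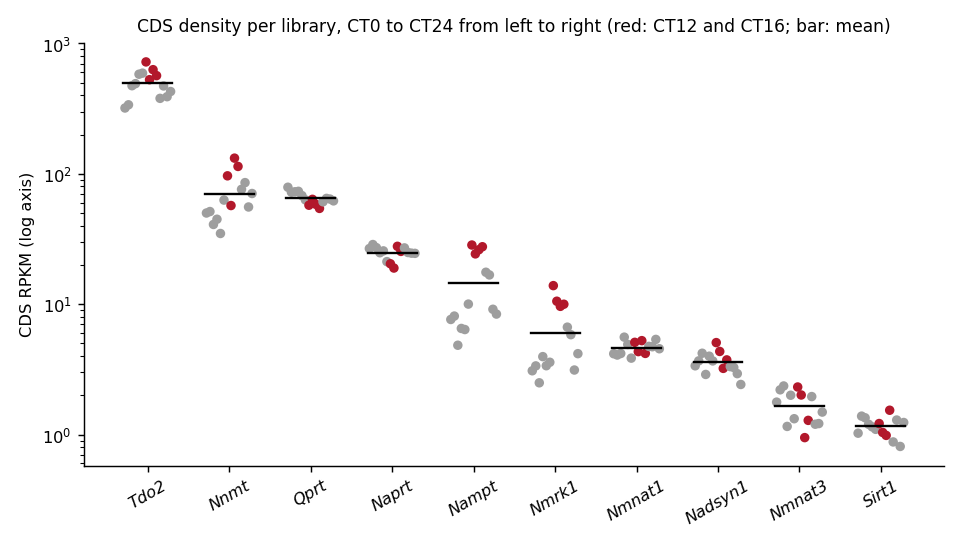
CDS density in RPKM (log axis) of the 10 genes in each of the 14 libraries, ordered by circadian time from left to right within a gene, with CT12 and CT16 in red and the mean as a bar. Nampt overlaps Naprt only through its CT12 and CT16 libraries, and the Nnmt and Qprt ranges overlap.

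Likeness to Nampt was measured as Pearson's r of log2(CPM + 0.5) over the 14 libraries, among 8146 genes with a mean of at least 100 counts. The libraries share the same mice and scaling, and genes with a like phase give a high r, so these values are descriptive. Nmrk1 ranked 1 with r = 0.960. The 5 genes outside the NAD set that came next were Maco1 (0.941), Cyp7a1, the rate-limiting enzyme of bile acid synthesis (0.935), Por, the reductase that feeds electrons to microsomal cytochromes (0.932), Top1, a DNA topoisomerase (0.931), and Ubr2, a ubiquitin ligase (0.931). Their cosines peaked between 14.8 h for Por and 15.8 h for Top1, with peak-to-trough differences from 0.68 for Ubr2 to 2.74 for Cyp7a1. Nnmt ranked 53 (r = 0.859) and Tdo2 1193 (0.473). At the other end, Qprt ranked 8106 of 8146 with r = -0.820, and Naprt had r = -0.388.

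Of 45 further genes of NAD metabolism, 44 had a transcript in the tables and 39 were tested. Of these, 10 were called rhythmic (25.6%, beside 11.2% of all transcripts and 16.6% of those with a mean of at least 100 counts). The median peak-to-trough difference of the 39 was 0.40. By total-count scaling 7 of the 39 were called, beside 8.25% of all transcripts, and 6 of them were the same genes. Nnt was not analysed here.

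In the kynurenine pathway, 4 of 9 tested genes passed besides Tdo2. Acmsd, which diverts the pathway away from quinolinate and so from NAD, went from 8.14 ± 0.519 CPM at CT12 to 23.0 ± 4.15 at CT20 (SD, n = 2), with a peak at 20.6 h (SE 0.503 h), a peak-to-trough difference of 1.58 and an adjusted p of 9.16e-05 (edgeR). Afmid, the formamidase that follows TDO2, peaked at 20.8 h (0.80, adjusted p = 0.00572), and Ido2, a second tryptophan-cleaving enzyme, at 22.6 h (0.56, adjusted p = 0.00808). Aadat, a kynurenine aminotransferase, peaked at 9.76 h (0.66, adjusted p = 0.0195), and by total-count scaling it was not called (adjusted p = 0.729). Haao, Kmo and Kynu, which lead from kynurenine to quinolinate, were not called, with adjusted p of 0.0851, 0.491 and 0.148 (edgeR). Ido1 had 0 counts in all libraries.

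Of the enzymes around salvage, Pnp and Nt5e passed, of 3 tested. Pnp, a nucleoside phosphorylase that can split nicotinamide riboside, peaked at 0.299 h (SE 0.544 h) with a difference of 1.20 (edgeR, adjusted p = 1.07e-04), and was lowest at CT12 (11.5 ± 2.41 CPM against 28.5 ± 2.1 at CT4). Nt5e, the ecto-nucleotidase CD73, peaked at 23.5 h (1.66, adjusted p = 0.00472) and was also lowest at CT12, at 1.07 ± 0.604 CPM against 4.70 ± 0.364 at CT24. Both passed by total-count scaling too.

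Of the oxidases, Aox3, an aldehyde oxidase that can oxidise nicotinamide derivatives, peaked at 8.12 h (0.81, adjusted p = 9.30e-04) and Cyp2e1 at 14.2 h (0.89, adjusted p = 0.00262), while Aox1 was not called (adjusted p = 0.374, edgeR). By total-count scaling neither Aox3 (adjusted p = 0.227) nor Cyp2e1 (adjusted p = 0.0931) passed. None of Sirt2 to Sirt7 passed, 6 tested, with a median peak-to-trough difference of 0.26, and none of Nadk, Nadk2 and Nudt12. Both groups are too small to set apart from the 11.2% called over all transcripts. Of 15 PARPs and NAD glycohydrolases tested, 2 were called by edgeR (13.3%, close to the 11.2% of all transcripts). They were Parp4 (peak 10.6 h, 0.75, adjusted p = 0.0145) and Parp16 (20.7 h, 0.72, adjusted p = 0.0476). Parp4 was not called by total-count scaling (edgeR, adjusted p = 0.618). Parp1 and Cd38 did not pass (edgeR, adjusted p = 0.216 and 0.612), though by total-count scaling Parp1 had an adjusted p of 0.0479.

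**Figure D4:**
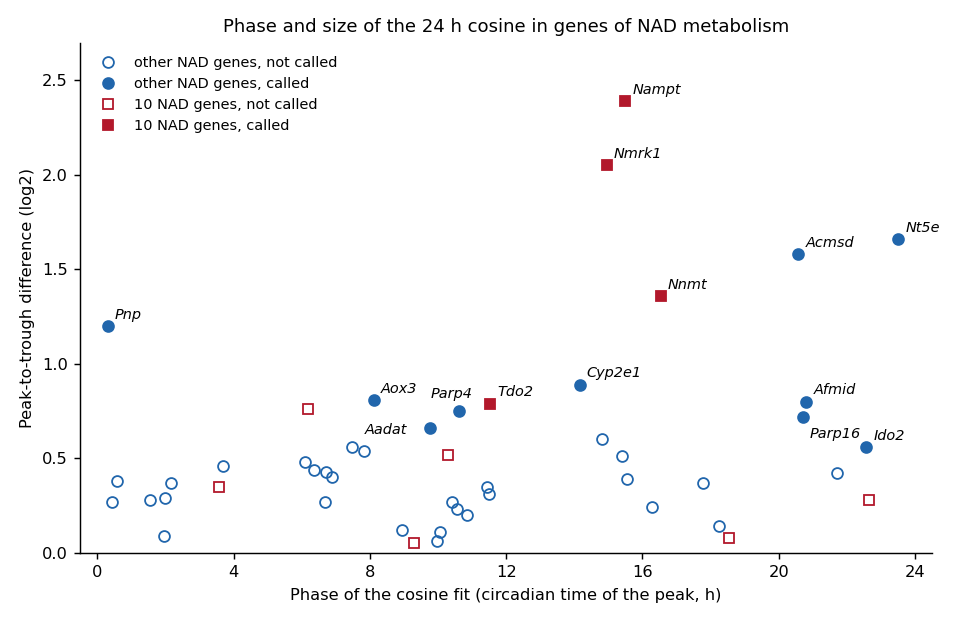
Peak-to-trough difference of the 24 h cosine on the log2 scale (vertical axis) against its phase in h, for the 10 NAD genes (red squares) and 39 other genes of NAD metabolism (blue circles), filled where called by edgeR. Nampt, Nmrk1 and Nnmt lie at 15.0 to 16.5 h, and Acmsd, Nt5e and Pnp between 20.6 h and 0.299 h.

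The clock genes themselves gave a time scale for these phases. Dbp peaked at 11.2 h (SE 0.486 h), close to the phase of Tdo2, Nr1d1 at 8.54 h (SE 0.328 h), Per2 at 16.5 h (SE 0.465 h) and Arntl at 23.0 h (SE 0.470 h), with peak-to-trough differences of 6.63, 5.56, 2.78 and 3.93. Nampt and Nmrk1 peaked between Dbp and Per2.

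Reads in the 5′UTR were counted apart. How a read was assigned to a region is not given, so these counts do not fix where a ribosome lay. They made up 1.10% of the 5′UTR and CDS reads of Nampt (200 reads over 14 libraries) and 16.2% of those of Nmrk1 (590 reads), while the median of 16838 transcripts was 3.88%. Per nucleotide, the 5′UTR density was 0.0702 times the CDS density for Nampt and 1.13 times for Nmrk1, against a median of 0.346. The 2 genes that moved together over the day thus differed in the share of reads counted in the 5′UTR. Tdo2 had 45610 such reads on a 5′UTR of only 35 nucleotides, or 8.02% of its reads and 3.07 times the CDS density. Qprt (8.51%, 1.91 times) and Nnmt (12.7%, 0.978 times) also lay above the median, and Naprt (2.23%, 0.155 times) below it. Sirt1 had 3 reads in its 5′UTR. Nmnat3 had the largest share, 24.3%, but it ran from 0% to 45.8% between libraries.

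The annotated 5′UTR of Nmrk1 holds an upstream open reading frame (uORF) of 15 nucleotides, a start codon with an in-frame stop 79 nucleotides before the coding sequence. It is shown, start and stop codon in capitals, because uORFs were the subject of the study and Nmrk1 is among the genes described by library here. It is not particular to Nmrk1: the annotated 5′UTRs of Nnmt, Naprt and Nmnat3 hold 1 uORF each, of 117, 36 and 48 nucleotides, and that of Nmnat1 holds 2, of 66 and 6 nucleotides, while those of Nampt, Tdo2, Qprt, Nadsyn1 and Sirt1 hold none. The 5′UTR has 119 nucleotides in the tables and 165 in the annotation for Nnmt, 88 and 155 for Nmnat1, and 436 and 448 for Nmnat3, so their uORFs may not lie in the region that was counted. For Nmrk1 these lengths are 102 and 101. They also differ for Nadsyn1 and for 1 transcript of Sirt1, which hold no uORF.
Nmrk1 uORF (chr19:18632023-18632037, plus strand): ATGaaacgctctTGA
The tables give 1 count for the whole 5′UTR, so no read can be placed on this frame.

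**Figure D5:**
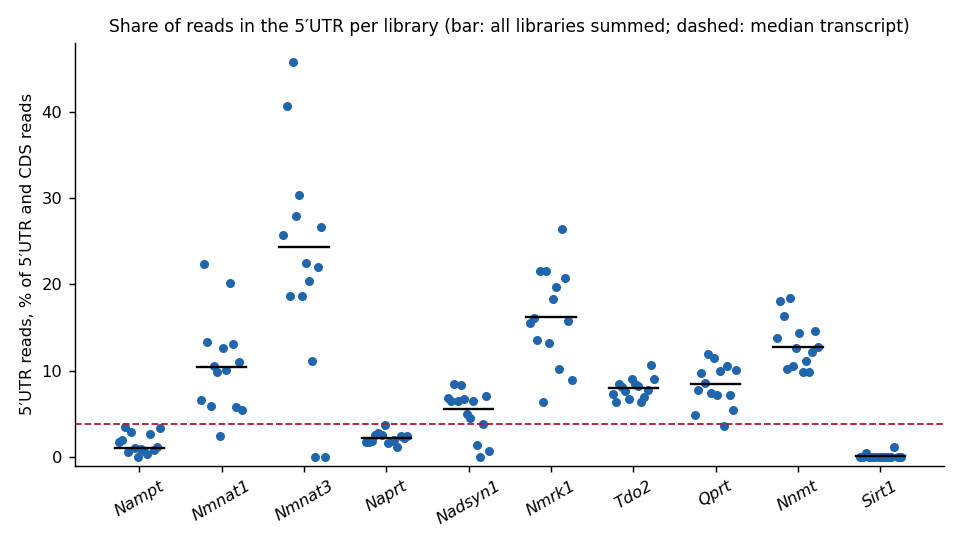
Reads in the 5′UTR as a percent of 5′UTR and CDS reads (vertical axis) for the 10 genes in each of the 14 libraries, ordered by circadian time within a gene, with the share over all libraries as a bar and the median transcript (3.88%) as a dashed line. Nampt, at 1.10%, lies below the line and Nmrk1, at 16.2%, above it.

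No change over the day in the balance of 5′UTR to CDS reads was called for any of these genes, which does not show that it was flat. The limma cosine test called 0 of 7640 transcripts (0%), with 377 at an unadjusted p under 0.05, and none of the 9 genes tested was among the 377. Nampt had an unadjusted p of 0.0582 and an adjusted p of 0.809, with a fitted peak-to-trough difference of 3.15 that was 1.62 without CT12 replicate 1. Nmrk1 had an adjusted p of 0.906. Sirt1 had too few 5′UTR reads to be tested.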

How the data were processed

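The authors made ribosome profiling libraries and deposited 1 table per library with raw counts, not normalized, for each region (5′UTR, coding sequence, 3′UTR) of every RefSeq transcript, beside the region's length. The submitters' processing notes name the build mm10, Bowtie2 2.1.0.0, FastQC and SAMtools 0.1.19.0. For its density profiles the study took uniquely aligned reads. Whether the deposited counts were made the same way, and how reads shared by overlapping transcripts were counted, is not given in the sources used here. The circadian time in a sample's title gave its group (for the last pair the title gives CT24 and another label CT00). One further run of CT16 replicate 2 has no table and was not used.

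The members and lists were chosen with earlier results of these data known. Counts of the 3 regions were added. Rhythms were tested with edgeR 4.0.16 (TMM, quasi-likelihood F test of cosine and sine terms of 24 h together, Benjamini-Hochberg over all transcripts, mean of at least 10 counts), and ratios with limma 3.58.1 on log2 counts plus 0.5. DESeq2 1.42.0 and an own implementation of JTK_CYCLE (Python 3.11, numpy 2.4.6) were alternatives. CDS lengths in the tables, used for RPKM, exceed the annotated ones by 1 nucleotide per coding exon. Sequences and start sites came from RefSeq (GRCm38.p6). Named besides the 10 genes were the other NAD genes called, the 4 others with most reads (Haao, Kmo, Kynu, Aox1), the 5 genes most like Nampt and 4 clock genes; Ido1, Sirt2 to Sirt7, Parp1, Cd38, Nadk, Nadk2, Nudt12 and Nnt were named after their values were seen.

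On simulated data with 200 of 17299 transcripts given a log2 peak-to-trough difference of 2, edgeR called 200 and 14 others. Every transcript was given the same spread between libraries beyond counting noise. Differences between 0 and 2 were not simulated, so this does not show how often smaller ones would be missed. With 2 mice per time, an SD rests on 2 values. Replicate numbers mark separate mice, not pairs.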

Additional observations from a re-analysis of the deposited data

How the results depend on the processing

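Over 35 alternatives Nampt, Nmrk1 and Nnmt were called rhythmic in every one, Nmnat1, Nmnat3, Naprt, Nadsyn1 and Sirt1 in none, Tdo2 in 32 and Qprt in 2. Tdo2 was not called by total-count scaling (edgeR, adjusted p = 0.355), by totals without the 10 largest transcripts (edgeR, adjusted p = 0.0689). JTK_CYCLE, a rank test made exact here, gave Tdo2 a P of 1.0 on total-count CPM, and Qprt passed by JTK_CYCLE alone. The number of the 10 genes called was 3 to 5, and 4 whichever library or time point was left out. Over all transcripts, 1929 were called by edgeR, against 1247 with 1 transcript per gene (11621 tested) and 1222 with time as a factor. There were 1162 calls without CT8 and 1063 without CT12 (fewer samples in both), and 1491 to 2070 with 1 library left out. In both JTK_CYCLE alternatives P was adjusted over the lags but not over transcripts. On total-count CPM 3051 passed that rule, where edgeR with TMM scaling had 4210 at an unadjusted p under 0.05. With the replicate number as a block, 1907 transcripts and the same 4 of the 10 genes were called by edgeR, 1847 of the transcripts being shared with the fit without the block. It changed no call of the 10 genes or of their ratios to Nampt or of 5′UTR to CDS. Over the 21 pairs of time points the correlation of replicate differences ran from -0.107 to 0.274, above 0.1 in 3. Against Nampt, 8 of 9 genes were called under all 20 alternatives run, and the ratio of 5′UTR to CDS reads gave 0 calls under all 19. Nampt has 1 transcript, so no other could be tried. Mean CDS densities moved by less than 1 SD under all alternatives. With the counts of CT16 replicate 2 halved, 1923 transcripts were called, 1914 of them shared. Nmnat3 and Sirt1 had the fewest reads of the 10 genes, with means of 101 and 156 per library, and how large a change this depth could show was not tested.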
